A study of Mus musculus with 100 samples.

Results

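The genes described here are the 509 expressed genes of mouse chromosome 1 in the KSR-iPSC lines, out of 1362 rows that the expression table places on this chromosome and 25965 rows in all. A gene was taken if its value over all reads, in log2 RPM (reads scaled to the size of the library), exceeded 2 in every one of the 12 libraries of these lines, and 9172 genes of the whole table met that level. The 509 genes lie between position 4773206 and position 195131570 of chromosome 1 (GRCm38). Chromosome 1 and the line M KSR3 were chosen because this line was already known to read higher there, so the size of that shift is given as a description and not as a test. The values asked of each gene were how far M KSR3 lay from the other lines, whether that difference could be told from 0 and from 1.5-fold, and which parental allele carried it.

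All cells but the ESCs came from F1 embryos of an i4F-BL6 mother and a CAST father. The mother's strain carries a doxycycline (DOX) inducible cassette of Oct4, Sox2, Klf4 and c-Myc on a C57BL/6J background, so this cassette is shared by the KSR-iPSCs and the MEFs. F KSR2 and F KSR4 are female lines and M KSR3 and M KSR5 are male lines, all reprogrammed in a medium with knockout serum replacement (KSR) under DOX and then kept in that medium without DOX. Each line is 1 colony, so what belongs to a clone cannot be told apart from what belongs to its chromosomes. Female MEFs were sequenced from the same cross, but the MEFs that gave rise to the male lines were not analysed here. TX 2i ESCs are female ESCs of the same 2 parental strains, BL6 on the maternal side, grown with MEK and GSK3 inhibition. Each of the 6 groups had 3 libraries, described as biological replicates, and their p-values measure the spread between cultures of 1 clone.

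A cell with an additional copy of a chromosome carries 3 template copies of each of its genes in place of 2, and transcript levels then tend to scale with copy number, giving a ratio of 1.5. Single genes can depart from this ratio where their transcription or transcript stability is under feedback, where a limiting partner sets the level, or where a gene elsewhere acts on them. In F1 hybrid cells the sequence differences between BL6 and CAST also tell which parental homologue is transcribed more. Gains of whole chromosomes are well known in cultured mouse pluripotent cells. The study counted chromosomes in metaphase spreads of M KSR3 and the other KSR lines and describes their karyotype as normal. Those counts were not analysed here, where only RNA was measured, so copy number below is a reference value and not a result.

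The promoters below show the genes to which the results return, one for each kind of response: Ivns1abp above 1.5-fold, Mcm3 close to it, Nucks1 at the level of the other lines, and Arl4c lower than in them. The sequences are from RefSeq on GRCm38 and run 5′ to 3′ on the strand of the gene, from 250 bases before to 50 bases after its start. CG dinucleotides, the sites of DNA methylation, are in capitals. Ivns1abp lies on the plus strand at chr1:151344248-151344547 and has 39 CG, Mcm3 on the minus strand at chr1:20820263-20820562 and has 8, Nucks1 on the plus strand at chr1:131910208-131910507 and has 21, and Arl4c on the minus strand at chr1:88702142-88702441 and has 44.
Ivns1abp: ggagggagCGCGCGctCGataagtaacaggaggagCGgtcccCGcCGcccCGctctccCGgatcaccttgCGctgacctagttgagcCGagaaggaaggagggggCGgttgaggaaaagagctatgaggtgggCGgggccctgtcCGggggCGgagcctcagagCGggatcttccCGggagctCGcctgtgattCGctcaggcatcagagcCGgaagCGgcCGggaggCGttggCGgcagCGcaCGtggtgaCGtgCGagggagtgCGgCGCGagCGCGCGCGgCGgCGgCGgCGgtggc
Mcm3: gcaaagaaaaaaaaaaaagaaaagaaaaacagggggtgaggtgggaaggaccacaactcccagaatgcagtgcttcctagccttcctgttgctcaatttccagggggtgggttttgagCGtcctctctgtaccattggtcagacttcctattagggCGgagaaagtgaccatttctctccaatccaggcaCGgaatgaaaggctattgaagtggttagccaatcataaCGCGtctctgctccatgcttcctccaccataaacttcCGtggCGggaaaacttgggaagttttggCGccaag
Nucks1: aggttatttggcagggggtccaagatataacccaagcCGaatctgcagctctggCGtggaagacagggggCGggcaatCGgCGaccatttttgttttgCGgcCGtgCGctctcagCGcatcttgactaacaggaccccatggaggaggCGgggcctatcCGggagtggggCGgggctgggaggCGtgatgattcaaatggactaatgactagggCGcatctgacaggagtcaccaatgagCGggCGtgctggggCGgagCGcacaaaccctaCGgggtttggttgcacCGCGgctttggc
Arl4c: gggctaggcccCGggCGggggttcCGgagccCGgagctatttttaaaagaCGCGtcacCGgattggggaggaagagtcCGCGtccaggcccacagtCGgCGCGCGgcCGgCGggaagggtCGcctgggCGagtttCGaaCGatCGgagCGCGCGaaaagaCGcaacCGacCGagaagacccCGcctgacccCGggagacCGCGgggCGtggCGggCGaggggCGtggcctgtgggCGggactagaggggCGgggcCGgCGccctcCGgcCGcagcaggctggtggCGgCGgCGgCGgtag
A promoter was matched for 417 of the 509 genes, 35 of them through an older symbol. Counting the dinucleotide CG, which reads the same on both strands, 91.4% of the matched promoters held at least 10, against 43.5% of all 32851 promoters of the RefSeq table. The matched genes were selected for expression and the promoters of that table were not, so the contrast is not one between chromosomes. The median CG count was 24 in 10 genes above 1.5-fold, 21 in 124 near it and 27.5 in 30 below it, beside quartiles of 17 and 31 over all matched genes.

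The libraries held 13183036 to 17921280 reads on genes. The cell identity of M KSR3 was checked with 10 markers of pluripotent cells and 16 of fibroblasts, none of them on chromosome 1. The summed level of the pluripotency markers was 4105 to 5039 RPM in M KSR3, 4279 to 6454 RPM in the other 3 lines and 71.2 to 119 RPM in female MEFs, where 5 to 6 of the 10 had no read. The summed level of the fibroblast markers was 73.6 to 119 RPM in M KSR3, 32.2 to 303 RPM in the other lines and 33135 to 43806 RPM in MEFs. The 303 RPM was that of M KSR5 replicate 3, while replicates 1 and 2 of this line had 32.2 and 50.4 RPM.

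In M KSR3 the 509 genes took a larger share of the reads on genes than in any other library. This share was 7.72%, 7.41% and 7.36% in the 3 M KSR3 libraries, 7.50% ± 0.19 (SD, n = 3). In the 9 libraries of the other lines it was 4.79% at the lowest and 5.60% at the highest, with 5.32% ± 0.27 (SD, n = 9). It was 5.23% ± 0.25 in female MEFs and 5.39% ± 0.084 in the ESCs (SD, n = 3 each), so only M KSR3 stood apart. The maternal share of their allelic reads, which are the reads that a BL6 or CAST sequence difference assigns to 1 allele, was 67.8%, 68.0% and 67.8% in M KSR3. In the 9 other KSR-iPSC libraries it was 51.1 to 52.4%, 50.7% ± 0.58 in female MEFs and 51.4% ± 0.43 in the ESCs (SD, n = 3 each). These shares rested on 114595 to 226516 allelic reads per library. A ratio of 2 maternal to 1 paternal copy would give a share of 66.7%.

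**Figure D1:**
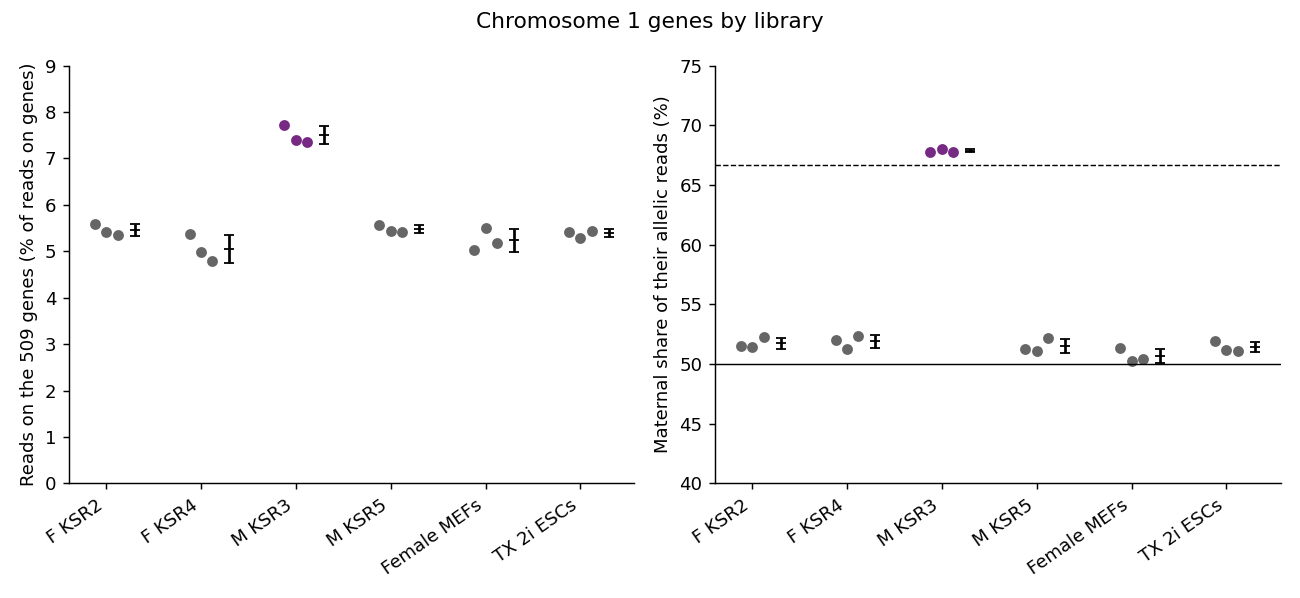
Share of the reads on genes that fell on the 509 chromosome 1 genes (left, %) and the maternal share of their allelic reads (right, %, axis from 40 to 75%), by group. Each point is 1 library and the bars are the mean and SD of 3 libraries; the lines on the right mark equal alleles and a ratio of 2 to 1. The M KSR3 libraries lie at 7.36 to 7.72% and at 67.8 to 68.0%, above all others.

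Per gene, the level of M KSR3 was compared with the mean of F KSR2, F KSR4 and M KSR5, after each library had been centred on 12 autosomes for which no gained or lost region was known. The median difference over the 509 genes was 0.55 log2 units, or 1.46-fold, against 0.58 for 1.5-fold. The middle 50% of the genes lay between 0.31 and 0.76, and the whole range ran from -1.64 to 1.94. On the 12 reference autosomes, 5368 genes had a median of 0.01 and the middle 50% lay between -0.21 and 0.21, so the spread around the median was about as wide on chromosome 1 as elsewhere. M KSR3 was above the other lines for 465 genes (91.4%), against 50.8% of the reference genes. A ratio between 1.25 and 1.75-fold was found for 269 genes (52.8%), 134 were under 1.25-fold, 106 over 1.75-fold and 51 over 2-fold. Seen by library, the median difference was 0.55, 0.56 and 0.56 in the 3 M KSR3 libraries. RPM values are relative to each library's total, and in these bulk samples fewer cells of a type and less RNA per cell cannot be told apart.

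**Figure D2:**
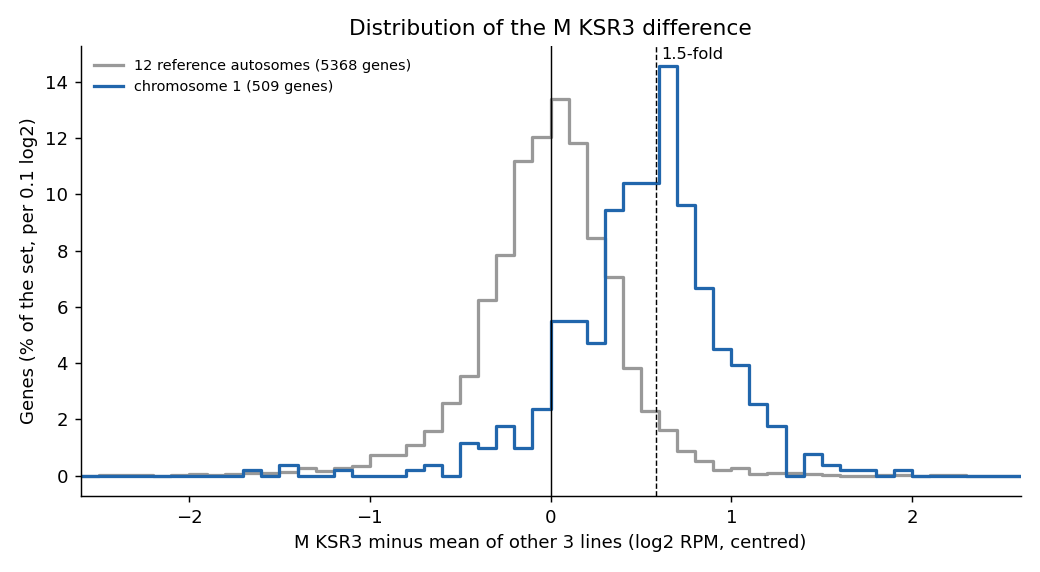
Distribution of the log2 RPM difference of M KSR3 from the mean of the other 3 lines, in steps of 0.1 on the x axis, as % of the genes of each set on the y axis. The 509 chromosome 1 genes have their median at 0.55, close to the dashed line for 1.5-fold, and the 5368 genes of the reference autosomes at 0.01.

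By limma with Benjamini-Hochberg adjustment over all 13609 genes tested, 159 of the 509 genes were higher in M KSR3 at an adjusted p under 0.05, 3 were lower and 347 passed in neither direction. Of all genes tested, 5.2% were higher and 4.05% lower. All M KSR3 libraries were above the 9 others for 204 members and all below for 2, against 7.56% and 3.54% of all genes. These rates over all genes include the members and other shifted chromosomes. Their median differences were 0.35 on chromosome 8, 0.36 on chromosome 11 and -0.51 on the X. The calls depended on the number of M KSR3 libraries: without replicate 1, 2 or 3 of this line, 51, 18 or 26 genes were higher, and without F KSR4 replicate 2 it was 235. The number of lower genes was 1 when any of the M KSR3 libraries was left out and 7 without F KSR4 replicate 2. With a single mean per line, 1 line against 3, limma called 0 genes in either direction, and 231 were higher and 5 lower at an unadjusted p under 0.05, so the calls above rest on the spread between libraries and not between clones. The median difference stayed between 0.53 and 0.57 whichever library was left out.

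Each gene was then tested against 1.5-fold in the same limma fit. Of the 509 genes, 13 passed above it, 146 passed against 0 and not against 1.5-fold and are called near 1.5-fold, 38 passed below it, and 312 were undecided. Over all genes tested 1.4% were above, 3.81% near and 38.6% below 1.5-fold, the last because most genes of other chromosomes lie around 0. Adjusting over all of these genes makes the test against 1.5-fold lenient for the members. With Holm adjustment, given in the last section, far fewer members were above, near or below it. The undecided genes had a median difference of 0.45, and 298 of the 312 were positive. Their 95% intervals held both 0 and 1.5-fold in 148 genes, lay above 0 in 137 and under 1.5-fold in 27, so the first 148 could be told from neither value with 3 libraries per line. A gene near 1.5-fold is one for which no departure was shown, and the median of these 146 was 0.79, with a range from 0.45 to 1.42. Passing against 0 selects larger differences, so this median is not comparable with the one over all members. Without M KSR3 replicate 1, 2 or 3, the number above 1.5-fold was 6, 4 or 5 and the number near it 45, 14 or 21, and without F KSR4 replicate 1, 2 or 3 the number above was 23, 27 or 24. The number below was 11 and 12 without M KSR3 replicate 2 and 3, and 61 and 59 without F KSR4 replicate 1 and 3.

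**Figure D3:**
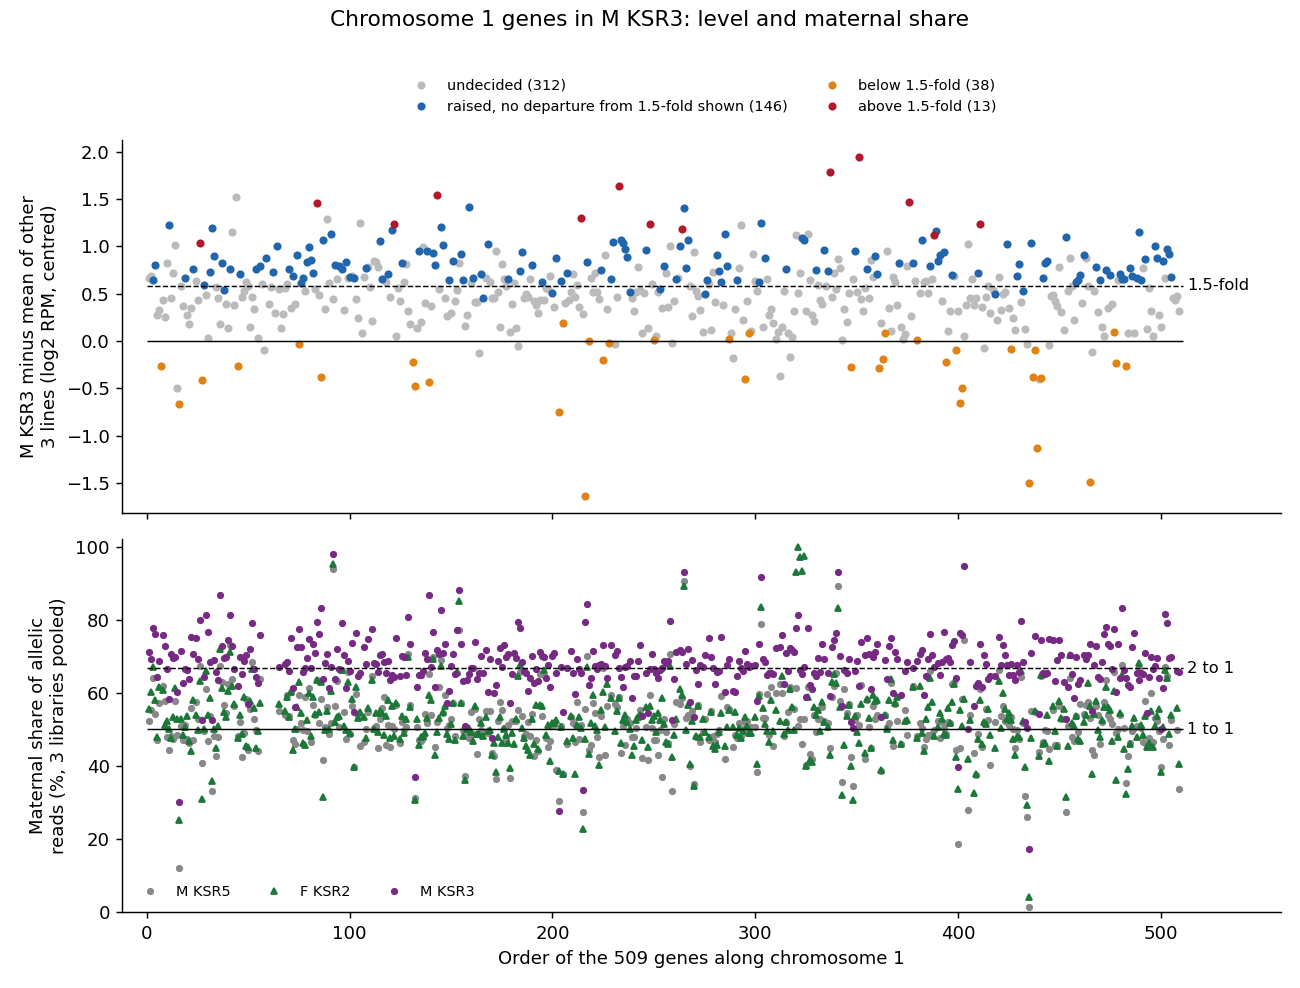
The 509 genes in their order along chromosome 1 (x axis). Above, the log2 RPM difference of M KSR3 from the mean of the other 3 lines, coloured by class; below, the maternal share of allelic reads (%) of each gene in M KSR3, M KSR5 and F KSR2, with 3 libraries pooled and lines at 1 to 1 and 2 to 1. The M KSR3 genes scatter around 1.5-fold and 2 to 1 along the whole length, and a run of 5 neighbouring genes with a share over 92% stands out in F KSR2.

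The shift ran along the whole chromosome. In 10 windows of 20 Mb the median difference lay between 0.45 in the first (27 genes) and 0.67 between 40 and 60 Mb (55 genes). The pooled maternal share of M KSR3 was 66.2 to 71.5% over the windows. Genes below 1.5-fold, described further on, lay in every window, from 1 of 44 between 20 and 40 Mb to 11 of 87 between 160 and 180 Mb. Beside chromosome 1, the medians of M KSR3 were 0.36 on chromosome 11 (751 genes) and 0.35 on chromosome 8 (534 genes), with pooled maternal shares of 61.6% and 65.2%. On chromosome 11, 22.4% of the genes were higher and on chromosome 8 12.4%, against 31.2% on chromosome 1. F KSR4, one of the lines that M KSR3 was compared with, had a maternal share of 63.5% on chromosome 8 itself, against 51.0% in F KSR2 and 50.2% in M KSR5, so the chromosome 8 values are relative to lines of which 1 was shifted too.

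The 13 genes above 1.5-fold had a median difference of 1.30 and for each of them all M KSR3 libraries were above the 9 others. This was so for 204 of all 509 members and 7.56% of all genes tested, and selecting large differences makes it likely. Npl (153503016 to 153549714, minus strand), a lyase that breaks down sialic acid, had 5.98, 6.40 and 6.54 log2 RPM in the M KSR3 libraries and 3.91, 4.42 and 4.96 as the lowest, median and highest of the 9 other libraries. The lowest M KSR3 library was thus a full log2 unit above the highest of the others. The difference was 1.94 (SE 0.20), with an adjusted p of 0.000226 against 0 and 0.000456 against 1.5-fold by limma. Ivns1abp (151344498 to 151364445, plus strand), a kelch protein that binds actin and an influenza protein, had 8.95, 8.80 and 8.87 in M KSR3, and 6.37, 6.98 and 7.88 in the others. Its highest other libraries were those of M KSR5, and against this line alone the difference was 1.10 in place of 1.78 (SE 0.14), still above 1.5-fold. Fzd5, a receptor for Wnt ligands, had 7.52, 7.32 and 7.29 in M KSR3 and 4.74, 5.92 and 7.08 in the others, which shows how widely the other lines differed for this gene.

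The other genes of this class have varied roles. Capn10, a calpain protease, differed by 1.64 (SE 0.19), and Usp40, a deubiquitinase, by 1.30 (SE 0.20). Obfc2a, a single-stranded DNA binding protein, differed by 1.46 (SE 0.22). Hsd17b7, an enzyme of cholesterol synthesis, differed by 1.24, as did Pign, which acts in the synthesis of GPI anchors. Dbi, an acyl-CoA binding protein, differed by 1.19, BC055324 by 1.12 and Tmem70, which helps to assemble ATP synthase, by 1.03. Their adjusted p against 1.5-fold by limma ran up to 0.0428, for Dbi. Against M KSR5 alone 5 of the 13 were still above 1.5-fold by the test, namely Npl, Ivns1abp, Capn10, Usp40 and Pign, and all 13 differences were larger than 1.5-fold. This comparison uses the same M KSR3 libraries and a part of the control that set the class, so it is not an independent check.

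Among the 146 genes near 1.5-fold, 8 were named for the narrowest intervals. Mcm3 (20802974 to 20820278, minus strand), a subunit of the replicative helicase, had 9.33, 9.17 and 9.17 log2 RPM in M KSR3 and 8.40, 8.69 and 8.89 in the 9 others. Every M KSR3 library was above every other one, and the difference of 0.59 (SE 0.12) was nearly that of 1.5-fold, with an adjusted p of 0.0102 against 0 and 0.973 against 1.5-fold by limma. Copa, the alpha subunit of the COPI vesicle coat, had 8.39, 8.25 and 8.24 in M KSR3 and 7.36, 7.46 and 7.63 in the others, a difference of 0.81 (SE 0.12). Hdlbp, an RNA binding protein, differed by 0.88, the glutamyl-prolyl-tRNA synthetase Eprs and the fumarate hydratase Fh1 both by 0.67, Vps4b, an ATPase of the ESCRT machinery, by 0.55, a septin that the table lists as Sep-02, a spreadsheet form of its symbol, by 0.51, and Rqcd1, a subunit of the CCR4-NOT deadenylase complex, by 0.45. For all 8 genes the M KSR3 libraries did not overlap with the others, as for 204 of the 509 members. Naming genes by a passed test and a narrow interval makes this likely.

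The 38 genes below 1.5-fold had a median difference of -0.26, from -1.64 to 0.19, and 35 of them did not pass against 0. Nucks1 (131910458 to 131936321, plus strand), a nuclear protein of chromatin and DNA repair, had 8.59, 8.60 and 8.68 log2 RPM in M KSR3 and 8.35, 8.57 and 8.84 in the others. The M KSR3 libraries lay in the middle of the others, with a difference of 0.02 (SE 0.14, 95% interval -0.27 to 0.31) and an adjusted p of 0.00635 against 1.5-fold by limma. Usf1, a basic helix-loop-helix transcription factor, had 5.87, 6.12 and 6.27 in M KSR3 and 5.94, 6.16 and 6.46 in the others, a difference of -0.08 (SE 0.16). Ptma, the precursor of the thymosin alpha peptide and one of the most abundant transcripts of the chromosome, had 11.06, 10.98 and 11.13 in M KSR3 and 10.58, 10.89 and 11.11 in the others. Its difference of 0.19 (SE 0.13) was the highest of this class, and because copies of Ptma occur elsewhere in the genome its reads are uncertain.

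Several of these genes varied strongly between the other lines. Prdm14, a transcription factor of naive pluripotency, had 4.37, 4.09 and 4.33 in M KSR3 and 3.63, 4.97 and 6.29 in the others, and its difference was -0.66 (SE 0.30) against the 3 lines but 0.13 against M KSR5. Hs6st1, which sulfates heparan sulfate, differed by -0.26, Klf7, a zinc finger transcription factor, by -0.43, Mosc2, a mitochondrial amidoxime reductase, by -0.26, and B3gnt7, a glycosyltransferase, by -0.75. Of the 38 genes, 15 were below 1.5-fold against M KSR5 alone and 29 against F KSR4 and M KSR5, and in both comparisons all 38 differences were under 1.5-fold. Both comparisons use libraries that set the class, so they are not independent of it.

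The 3 genes that were lower in M KSR3 were Arl4c, Lefty1 and Aim2. Arl4c (88673125 to 88702221, minus strand), a small GTPase, had 3.43, 3.07 and 2.50 log2 RPM in M KSR3 and 3.72, 4.83 and 5.06 in the others. The groups did not overlap, and M KSR3 was at 0.32-fold of the others, with a difference of -1.64 (SE 0.28) and an adjusted p of 0.00372 by limma. Arl4c was the 1 gene also lower against M KSR5 alone (-1.47, adjusted p = 0.041 by limma). Aim2, a sensor of cytosolic DNA, had 4.36, 4.25 and 4.29 in M KSR3 and 4.76, 5.51 and 6.13 in the others, a difference of -1.13 (SE 0.26, adjusted p = 0.0155 by limma). It belongs to the HIN200 family of related genes (173350879 to 173466040, plus strand), so reads shared with relatives are uncertain. Lefty1, an inhibitor of Nodal signalling, had 4.74, 4.29 and 4.77 in M KSR3 and 4.46, 6.30 and 7.32 in the others, so the groups overlapped at the low end. Its difference was -1.48 (SE 0.43, adjusted p = 0.0459 by limma).

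**Figure D4:**
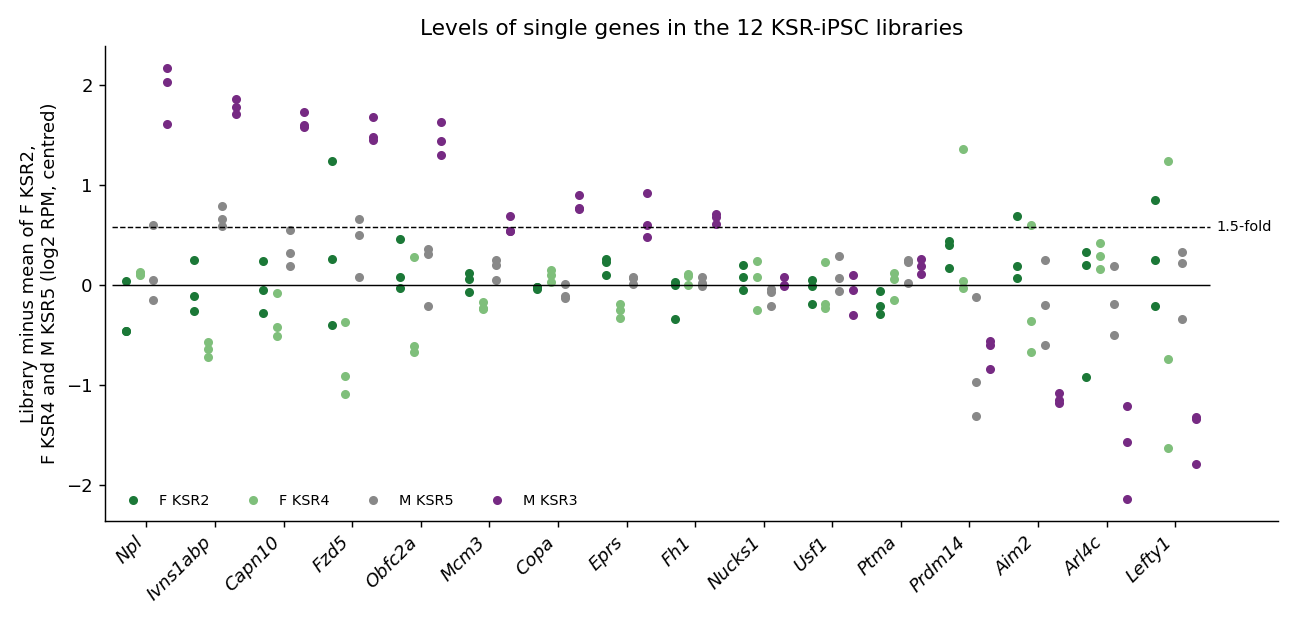
Level of 16 single genes (x axis) in each of the 12 KSR-iPSC libraries, as the log2 RPM difference from the mean of F KSR2, F KSR4 and M KSR5 (y axis), coloured by line; the dashed line marks 1.5-fold. Genes above 1.5-fold are on the left, those near it in the middle and those below it on the right; Arl4c in M KSR3 lies below all other libraries, whereas for Lefty1 1 F KSR4 library lies among the M KSR3 libraries.

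Genes were also grouped by function, and only genes of this chromosome that met the expression level were counted in each list. Of 6 aminoacyl-tRNA synthetases, which load amino acids onto tRNA, 3 were higher, among them Iars2 and Eprs, and the median difference was 0.68. The other 3, Farsb at 0.46, Dars at 0.60 and Mars2 at 1.25, had no overlap with the other lines but did not pass. Of 16 genes of the ribosome and translation, 5 were higher, with a median of 0.55. The highest were the ribosome assembly factor Nvl at 0.78 and the initiation factor Eif2d at 0.74. The lowest were the ribosomal protein genes Rpl31 at 0.14, Rpl37a at 0.16 and Rpl7 at 0.18, none of which passed against 0 or against 1.5-fold, and whose reads are uncertain because ribosomal proteins have many processed copies.

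Of 16 mitochondrial genes 9 were higher, with a median of 0.67. Tfb2m, a mitochondrial transcription factor, was at 1.10, and Bcs1l, an assembly factor of respiratory complex III, at 1.03, while Sdhc, a subunit of succinate dehydrogenase, was at 0.30 without passing. Of 15 genes of DNA replication and repair, 10 were higher, with a median of 0.65, among them Xrcc5, a subunit of the Ku heterodimer, at 0.92 (SE 0.18), Mcm6 at 0.65 (SE 0.14) and Parp1, which senses DNA breaks, at 0.62 (SE 0.16). Of 10 genes of mitosis, 5 were higher, with a median of 0.68, and Kif14, a kinesin of cytokinesis, was the highest at 1.07, in a stretch where F KSR2 was low, and 0.77 against F KSR4 and M KSR5. Of 14 genes of the ubiquitin system, 6 were higher, with a median of 0.51, led by Usp40 and by Uchl5, a deubiquitinase, at 0.96. Of 8 genes of splicing and RNA processing, 2 were higher, with a median of 0.51.

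The lists of pluripotency and embryonic signalling and of chromatin regulators had medians under that of all members. Of 13 members of the first, 2 were higher, among them Fzd5, 1 was lower (Lefty1), 4 were below 1.5-fold and the median was 0.05. Tfcp2l1, a transcription factor of naive pluripotency, was at 1.00, Nr5a2, a nuclear receptor that binds the Oct4 gene, at 1.13 and Lefty2, a second inhibitor of Nodal, at 0.88, none of them past the threshold. At the other end were Pou2f1 at -0.50, Prdm14 and Lefty1, so this list had differences in both directions. Of 11 chromatin regulators, 2 were higher, Rbbp5, a subunit of histone H3K4 methyltransferases, at 0.65 and Parp1, and the median was 0.15. The histone methyltransferase Smyd2 was at 0.06 and Hdac4 at -0.02, the latter from a row that spans only 91928785 to 91931176.

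The 4 members of the p53 pathway list did not pass the test, with Mdm4 at 0.77, Btg2 at 0.64, Trp53bp2 at 0.39 and Phlda3 at 0.04. Mdm4, an inhibitor of p53, had 3.64 to 7.24 log2 RPM in the other 9 libraries, a range far wider than 1.5-fold. Of 5 matrix genes, 1 was higher, Lamc1, the gamma 1 chain of laminin, at 0.95 (SE 0.19), whereas fibronectin Fn1 was at 0.42 (SE 0.34). The median over all 509 genes was 0.55 and 31.2% were higher, and the lists were not tested against this.

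The 5 genes with the highest level were Ncl, Ptma, Rpl7, Hspd1 and Hnrnpu. Nucleolin, encoded by Ncl, had 11.98, 11.80 and 11.74 log2 RPM in M KSR3 and 10.59, 11.23 and 11.66 in the others, a difference of 0.64 (SE 0.19). Hspd1, a chaperone of the mitochondrial matrix, differed by 0.67 (SE 0.19). Both passed against 0, with adjusted p of 0.0484 for Ncl and 0.0430 for Hspd1 by limma. Both calls were lost without any 1 library of F KSR2, M KSR3 or M KSR5, without centring (adjusted p of 0.0548 and 0.0563), centred on all autosomes (0.0697 and 0.0639) and without the filter on low values (0.326 and 0.192). Rpl7 at 0.18 and Hnrnpu at 0.30 passed neither test, and Hnrnpu shares part of its span with another gene of the same strand.

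The classes were set side by side in level, span and spread, with no test. Genes above 1.5-fold had a median level of 26.2 RPM in the other lines, those near it 47.2 RPM, those below it 34.6 RPM and the undecided ones 40.2 RPM. Their median spans were 19.9, 33.4, 35.7 and 29.8 kb. The SD between the means of the other 3 lines was 0.29 for genes above, 0.17 for genes near and 0.23 for genes below 1.5-fold, and the SE of the difference was lowest for genes near it. The SE is part of the tests that set the classes, so it is not independent of the class. Genes just inside the level of the rule were Dsel, whose lowest library was at 2.01, Tbc1d8 at 2.03 and Fam36a at 2.03, with differences of 0.35, 0.29 and 0.37. Just outside were Inhbb at 1.99, Pikfyve at 1.95 and Lipt1 at 1.93, with differences of 1.76, 1.06 and 0.96.

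The allelic reads told which homologue was read more. A shift was the change, from the mean of the other 3 lines to M KSR3, in the log2 ratio of maternal to paternal reads, and a change from 1 to 1 to 2 to 1 equals 1. The 462 genes with at least 10 allelic reads in each library had a median shift of 0.97, with the middle 50% between 0.83 and 1.10, and 455 were positive. By limma with Benjamini-Hochberg adjustment, 370 genes had a maternal shift and 1 a paternal one, against 15.5% and 4.54% of all 8935 genes tested. Those rates are not those of unshifted genes. They include the X, with a median shift of 4.93, and chromosomes 8 and 11, with 0.62 and 0.76. They also include chromosome 6, with a median of -1.75 and a maternal share of 96.7% in F KSR2. The median on the reference autosomes was -0.02. Against a shift of 1, 11 genes were above it, 22 below it, 350 passed against 0 and not against 1, and 79 passed neither test. With a single mean per line, limma called 0 maternal shifts, and 387 were positive at an unadjusted p under 0.05.

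**Figure D5:**
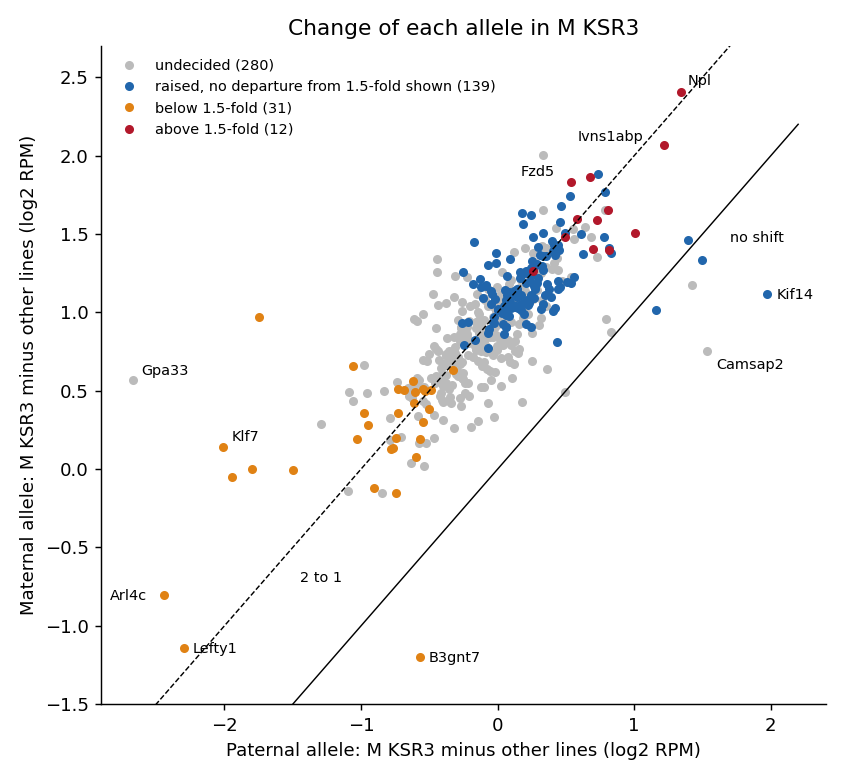
Log2 RPM difference of M KSR3 from the mean of the other 3 lines for the paternal allele (x axis) and the maternal allele (y axis) of 462 genes, coloured by the class of the total level. Genes on the solid line have no allelic shift and those on the dashed line a shift from 1 to 1 to 2 to 1; most genes of every class follow the dashed line, while Kif14, Camsap2 and B3gnt7 lie to its right and Gpa33 to its left.

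Considered separately, the maternal allele was higher and the paternal allele near the level of the other lines. The maternal allele had a median difference of 0.94 (middle 50% from 0.67 to 1.15), and 272 of 462 genes were higher and 1 lower by limma, against 9.96% and 3.59% of all genes tested. The paternal allele had a median of -0.02 (middle 50% from -0.32 to 0.21), and 5 genes were higher and 11 lower, against 2.01% and 4.98% of all genes. For either allele, the rates over all genes include chromosome 6, where the maternal share of F KSR2 was 96.7%. They also include the X, where the share was 99.7% in M KSR3 and 49.9% and 49.6% in F KSR2 and F KSR4. In the 12 tested genes above 1.5-fold the median was 1.59 for the maternal and 0.71 for the paternal allele, and the paternal difference was positive in 12 of 12. In the 31 tested genes below 1.5-fold the medians were 0.28 and -0.74, and the paternal difference was positive in 0 of 31. The median shift was 0.93 above, 0.98 near and 1.09 below 1.5-fold, and 23 of the 31 genes below passed as a maternal shift. The allelic reads are part of the reads that set the classes, so the sign of these allele values is not independent of the class.

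Single genes show this. The maternal share of Nucks1 was 69.2% in M KSR3 and 50.7 to 57.1% in the 9 others, a shift of 0.89 (SE 0.12), although its total level was that of the other lines. Usf1 had 67.6% against 51.1 to 57.3%, and Ptma 54.8% against 35.5 to 41.8%, where the paternal allele had more reads in the other lines. Mcm3 had 64.5% against 49.2 to 51.4%. In Ivns1abp the share was 59.2% in M KSR3 and 37.1 to 51.1% in the others, and both alleles were higher, by 2.07 for the maternal and 1.22 for the paternal allele (adjusted p = 9.23e-06 and 0.00108 by limma). Both alleles of Npl were higher as well, by 2.41 and 1.34. In Arl4c the paternal allele fell by 2.44 (adjusted p = 0.000172 by limma) and the maternal difference was -0.80 without passing, from 78 allelic reads in the M KSR3 libraries together. In Lefty1 the paternal allele also fell, by 2.30, and the shift was 1.16 (SE 0.22).

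The largest shifts among the 312 genes with at least 50 allelic reads in each library were those of Gpa33, Mosc2 and Bpnt1. Gpa33, a cell surface antigen of the gut, had a maternal share of 95.0% in M KSR3 and 51.7 to 83.7% in the others, a shift of 3.24 (SE 0.34), and its paternal allele was lower by the test with a difference of -2.67, while its total level differed by 0.05. Mosc2 had a shift of 1.72 (SE 0.23) and Bpnt1, a phosphatase of nucleotide bisphosphates, one of 1.64 (SE 0.21). At the other end, B3gnt7 was the 1 gene with a paternal shift, of -0.63 (SE 0.14, adjusted p = 0.00815 by limma). Its maternal share was 27.6% in M KSR3 and 25.4%, 38.9% and 44.1% as the lowest, median and highest of the others, so the libraries overlapped, and its maternal allele differed by -1.20.

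The lowest shifts, -0.86 in Kif14 and -0.78 in Camsap2, lay in a short stretch where F KSR2 stood apart from the other lines. The 5 neighbouring members Kif21b, 5730559C18Rik, Camsap2, Ddx59 and Kif14 lie within 400 kb (136131389 to 136531511), and they were singled out after their values had been seen. In F KSR2, 1202 of their allelic reads were maternal and 42 paternal, a share of 96.6%, with 93.0 to 100% per gene. The share was 52.6% in F KSR4, 53.1% in M KSR5, 50.0% in female MEFs, 51.7% in TX 2i ESCs and 68.6% in M KSR3. The 6 neighbouring members Csrp1, Phlda3, Tmem9, Zfp281, Nr5a2 and Nek7 had 39.9 to 60.9% in F KSR2, so the stretch was bounded on both sides. The level of F KSR2 was lower there too, with a median of -0.88 against the mean of F KSR4 and M KSR5. Set against these 2 lines alone, the shifts of the 5 genes in M KSR3 were 0.81 to 1.91 in place of -0.86 to 0.04, and their differences were 0.16 to 0.97 in place of 0.51 to 1.12. Among all runs of 5 neighbouring members, the highest share of F KSR2 outside this stretch was 63.0%, and the lowest median shift of M KSR3 outside it was 0.66. Without F KSR2, 10 of the 13 genes above 1.5-fold kept that call, with Dbi, BC055324 and Tmem70 then near 1.5-fold. The libraries left in this comparison had also set the class.

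M KSR5 is the other male line, so the comparison with it leaves sex out. The median difference of M KSR3 from M KSR5 over the 509 genes was 0.55 and 466 genes were positive. By limma 37 genes were higher and 1, Arl4c, was lower, against 1.18% and 1.24% of all genes tested. Fewer calls passed here, with 3 libraries of M KSR5 on the other side in place of 9 that included the female lines. Why fewer passed was not tested. Of the 146 genes near 1.5-fold, 28 were also near it here, in a comparison whose libraries had all entered the first one. The differences of Copa (0.88) and Hdlbp (0.84) passed against 0, while those of Mcm3 (0.42), Eprs (0.61) and Ncl (0.38) did not.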

How the data were processed

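Strand-specific reads had been trimmed (Trim Galore 0.6.1), mapped to GRCm38 (HISAT2 2.1.0) and quantified over genes in SeqMonk by the authors, who deposited log2 RPM values over all reads and per allele, with a gene without reads held at the value of 0.9 read. Of 72 columns, 18 with reads lacking an informative difference were not used. Reads were recovered from the deposited steps. Values were centred per library on the median of 12 reference autosomes and fitted with limma 3.58.1 in R 4.3.3, with a mean per line and a trend, for genes above 0 in at least 3 of the 12 KSR-iPSC libraries, with Benjamini-Hochberg adjustment over all genes tested and a threshold of 0.05. Allelic ratios used a pseudocount of 0.5 read and genes with at least 10 allelic reads per library. Named genes were, by rule, the extremes of each class by difference, p or interval width, up to 4 per functional list, the 5 highest levels, the 3 largest and smallest shifts and the 3 genes on either side of the expression level. The members, lists and tests were chosen with earlier results of these data known. The model was tested on simulated data with set changes in M KSR3 and no other variation between lines. That simulation does not cover the spread between clones. Alternatives changed centring, filter, adjustment, controls and libraries. Genes are named by the symbol and coordinates of the table, and coordinates are 1-based. The results of some genes that the rule names are not reported here.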

Additional observations from a re-analysis of the deposited data

How the results depend on the processing

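The median difference was 0.55 and stayed between 0.53 and 0.57 when 1 library was left out; centred on all autosomes it was 0.49. The median allelic shift stayed between 0.96 and 0.98 and the maternal share between 67.8 and 67.9%. Call counts moved more. Leaving out 1 library gave 18 to 235 genes higher, 1 to 7 lower, 4 to 27 above, 14 to 208 near and 11 to 61 below 1.5-fold, and 316 to 385 maternal shifts. With line means, 0 genes were higher, lower, above or near 1.5-fold, 5 were below, and 0 had a maternal shift (231 higher, 5 lower and 387 maternal shifts at an unadjusted limma p under 0.05). Holm adjustment gave 3 higher, 0 lower, 1 above, 2 near and 1 below, and M KSR5 alone as control 37, 1, 5, 32 and 17. The number above 1.5-fold was 20 without a filter on low values, 21 with the female lines alone as control and 23 with all 18 libraries fitted, when 58 were below. With F KSR4 replicate 2 and M KSR5 replicate 3 left out, an alternative chosen after seeing the data, as was the control of F KSR4 and M KSR5, 239 were higher, 8 lower, 25 above and 59 below. The value subtracted in centring was -0.26 for F KSR4 replicate 2 and -0.08 to 0.08 for the other KSR-iPSC libraries. M KSR5 replicate 3 had the highest sum of fibroblast markers among these libraries, 303 RPM. With a replicate block 161 genes were higher, 2 lower, 14 above, 147 near and 44 below 1.5-fold, and 367 had a maternal shift. The replicate numbers were not taken as pairs in the main fit. Of 18 same-number pairs, 8 had a correlation over 0.1. Over the 18 pairs it ran from -0.31 to 0.57 with a median of 0.060, against -0.017 for 36 other pairs. Whether some libraries shared a batch was not tested. Of 1998 values of 74 named genes under the 27 alternatives run for them, 1690 kept direction and side of the threshold, 229 lost the call, 36 gained one and 43 changed sign, in 11 genes without a call. Of 34 named genes with a call against 0, 23 lost it without at least 1 library. With 1 library left out, the difference of Hdac4 ran from -0.187 to 0.0863, Nucks1 from -0.0228 to 0.0589, Smyd2 from -0.0388 to 0.137, Phlda3 from -0.0577 to 0.198, Gpa33 from -0.0723 to 0.253, Bpnt1 from -0.119 to 0.192, Ino80d from -0.0165 to 0.263, Usf1 from -0.174 to 0.0294 and Dst from -0.007 to 0.246. Hdac4 was at 0.0188 without centring. With all autosomes as centre, Nucks1 was at -0.0378, Smyd2 at -0.0035, Phlda3 at -0.022 and Gpa33 at -0.011. Against M KSR5 alone, Prdm14 was at 0.131, Hdac4 at 0.0503 and Smyd2 at -0.0824. Against the female lines, Nucks1 was at -0.0286, Phlda3 at -0.137 and Gpa33 at -0.389. With both libraries left out, Nucks1 was at -0.0113, Smyd2 at -0.0728 and Bpnt1 at -0.161. Against F KSR4 and M KSR5, Rpl31 was at -0.0086, Hdac4 at 0.0264, Smyd2 at -0.14 and Phlda3 at -0.0566. The cause of these changes was not tested.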
